A study of Mus musculus with 45 samples.

Results

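The genes of the histones, the proteins around which DNA is wrapped in the nucleus, were followed in the hippocampus of 45 female mice. They were taken as every gene of the deposited expression table whose symbol begins with Hist1h, Hist2h, Hist3h, Hist4h, H2af or H3f3. The mouse annotation holds 87 such symbols, and 26 of them were among the 15897 genes of the table. Of these, 16 are clustered genes, named after the gene clusters in which they lie, and 10 are variant genes, whose symbols name no cluster. The rule does not ask whether a gene codes for protein, and 23 of the 26 do. H3f3c and Hist3h2bb-ps are annotated as processed pseudogenes and H3f3aos as an antisense RNA.

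Clustered genes encode the bulk histones H1, H2A, H2B, H3 and H4, which a dividing cell makes while it copies its DNA. Their messenger RNAs classically end in a short stem-loop that the stem-loop binding protein recognises, and not in a poly(A) tail. Variant genes such as H3f3a and H3f3b, which both encode the replacement histone H3.3, are made throughout the cell cycle from polyadenylated messengers and serve the chromatin of cells that no longer divide, such as neurons.

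The mice carried the APPswe/PS1dE9 transgene under the mouse PrP promoter (A+) or not (Aw), and human Tau P301L under the CaMKII promoter (T+) or not (Tw), all on a C57Bl/6J background. The double transgenic mice came from crossing the heterozygous lines. From 7 months of age until sacrifice at 13 months, mice ate either standard chow (STD, 5% fat by weight and 0% cholesterol) or a typical Western diet (TWD, 21% fat, 0.15% cholesterol and rich in sucrose). The 4 genotypes were AwTw, the wild type, the single transgenic AwT+ and A+Tw, and A+T+ with both transgenes, each on either diet. Of the 8 groups 6 held 6 mice, while A+Tw/STD held 5 and A+T+/STD held 4, and every sample was its own animal. Libraries were made from polyadenylated RNA of hippocampus homogenate, so that fewer cells of a type and less RNA per cell cannot be told apart in these values. The labels place 20 mice in batch 0 and 25 in batch 1.

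Values are the deposited ones, which are variance-stabilized and batch-corrected and behave as log2 values, so that a difference of 1 is close to a doubling for well-expressed genes. Read depth per mouse cannot be read from such values, and errors come from the spread between mice. The medians of the mice lay between 8.05 and 8.31. The APP/PS1 label held in the data, with App higher by 0.90, Prnp by 1.11 and the plaque-associated microglial gene Cst7 by 4.13 in APP/PS1 carriers. Mapt differed by 0.064 ± 0.052 in tau carriers (adjusted p = 0.999). The human tau transgene was not analysed here, so that the tau label was not checked. The neuronal markers were high, with a mean of 13.31 ± 0.13 (SD, n = 6) in AwTw/STD mice, and markers of the hippocampus as a region were not tested.

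The histone messengers that could be seen in these libraries were a small and uneven share of the annotated ones. In the table stood 8 of 56 genes of the Hist1 cluster on chromosome 13, 5 of 10 of Hist2 on chromosome 3, 3 of 3 of Hist3 on chromosome 11 and 0 of 1 of Hist4. Among the protein-coding symbols the share was 29.5%, against 64.7% of all 21951 protein-coding genes. The stem-loop was searched as 2 arms, GGNNCT and AGNNCC, that pair and lie 4 bases apart, within 100 bases after the stop codon. It was found in 46 of 67 clustered coding genes (68.7%), and in 0.244% of the 21699 coding genes with an annotated stop. All 17 clustered genes whose annotation runs less than 50 bases past the stop lacked it, so that a missing match can be a missing annotation.

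The stem-loops of the clustered genes on which the results turn, and of the variant gene H2afx, are given here 5′ to 3′ in the DNA alphabet from the GRCm38.p6 transcripts, with both arms in capitals.
Hist3h2a: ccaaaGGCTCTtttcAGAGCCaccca
Hist3h2ba: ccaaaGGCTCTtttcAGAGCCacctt
Hist2h3c2: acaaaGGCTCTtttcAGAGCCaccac
Hist2h2aa2: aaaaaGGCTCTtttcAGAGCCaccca
Hist1h1c: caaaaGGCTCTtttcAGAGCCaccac
Hist1h4h: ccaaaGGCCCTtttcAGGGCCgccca
Hist2h4: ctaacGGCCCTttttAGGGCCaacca
H2afx: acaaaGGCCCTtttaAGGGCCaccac

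The H1, H2A, H2B and H3 genes of the clusters with a match, 34 in all, carried the arm GGCTCT. The 12 clustered H4 genes with a match carried GGCCCT (10 genes) or GGTCCT (2 genes), and H2afx shared GGCCCT with them. H2afx, which encodes the DNA-damage histone H2A.X, was the single variant gene with a stem-loop among 11 coding variants. In the table stood 12 of the 46 clustered genes with a stem-loop. The poly(A) signal AATAAA was found on the sense strand in the last 50 bases of a transcript of 6 of the 15 clustered coding genes in the table (40.0%) and of 8 of the 52 outside it (15.4%), against 66.2% of all coding genes. Annotated sequence after the stop had a median of 823 bases for the clustered genes in the table and of 77.5 bases for those outside it. Hist3h2a, Hist3h2ba, Hist1h1c and Hist2h4 carried both the stem-loop and AATAAA. Hist1h2bc, the clustered gene with the highest value, had neither in its 1 annotated transcript. That transcript has 1156 bases over a span of chr13:23684199-23692908 and is thus spliced, and the genome sequence after the stop was not searched.

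Variant genes had the higher median level, although the levels of the classes overlapped. H3f3b had the highest mean value of the histone genes at 11.08, ahead of H3f3a at 10.73, H2afy (macroH2A1) at 10.29 and H2afz (H2A.Z) at 9.94. The median of the 10 variant genes was 9.10 and that of the 16 clustered genes 6.64, against 8.21 over all genes. The clustered genes were led by Hist1h2bc (9.36), Hist3h2a (8.95), Hist1h1c (8.28), Hist2h2aa2 (8.04) and Hist3h2ba (7.64), and the other 11 lay between 5.35 and 7.15. After subtraction of log2 of the transcript length in kilobases, a rough allowance for length, the order began with H3f3a at 10.90, H2afz at 10.24, H3f3b at 9.91 and H2afy at 9.30. The length is a median over annotated transcripts, so this order depends on the annotation. For H3f3a it was 888 bases, although an annotated transcript of that gene has 2245 bases after the stop. On that length scale Hist1h2bc was at 9.15 and Hist2h2aa2 at 8.96, next to H2afj at 8.96.

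**Figure D1:**
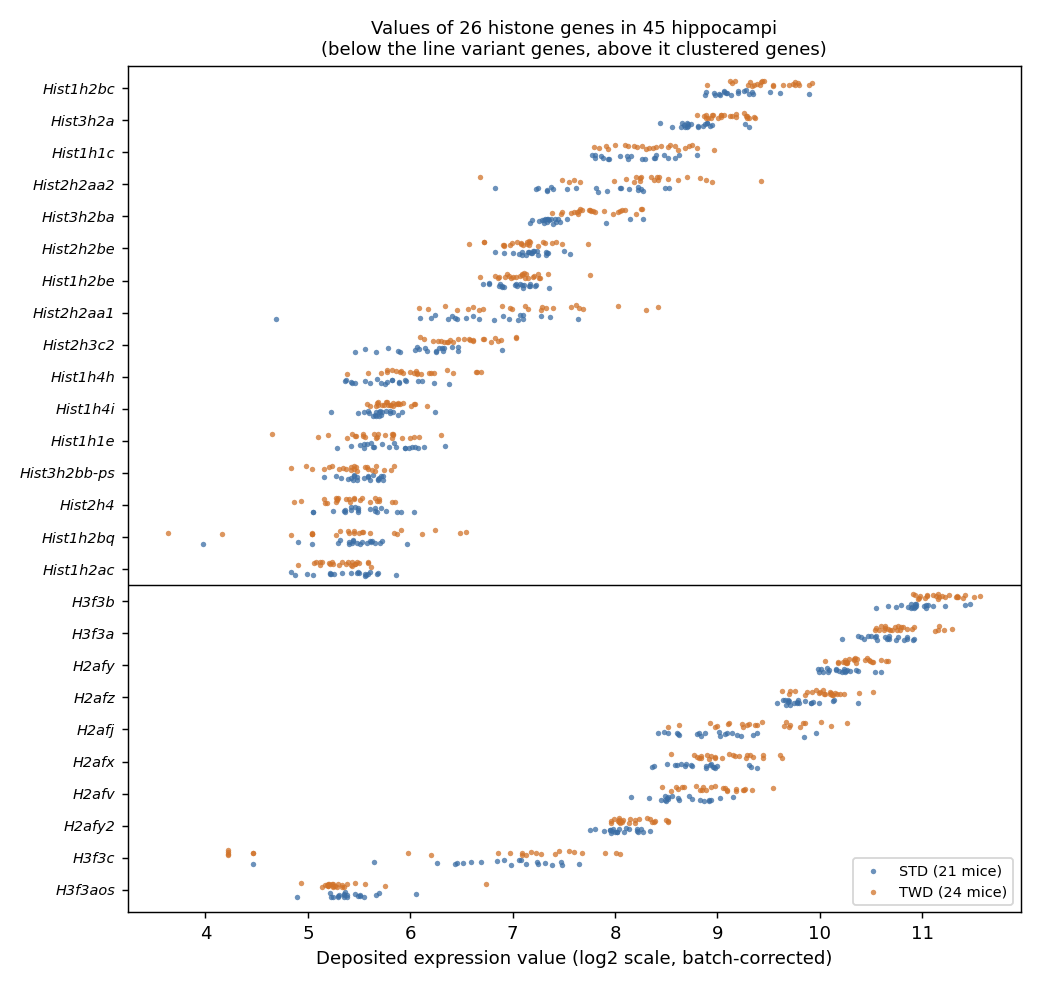
Value of each of the 26 histone genes in each mouse, on the log2 scale of the deposited table, with 1 point per mouse and the colour giving the diet (21 STD and 24 TWD mice). The variant genes H3f3b, H3f3a, H2afy and H2afz reach the highest values, and H3f3c has the widest range, from 4.22 to 8.05.

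Mice on TWD had higher values of 13 of the 26 histone genes, 6 clustered and 7 variant, and of none was the value lower past the test. The question was how the diet relates to expression irrespective of genotype, tested with limma with genotype and batch in the fit and p adjusted by Benjamini-Hochberg over all 15897 genes. An adjusted p below 0.05 is called higher or lower here. Over all genes 16.0% were called higher on TWD and 13.4% lower, so that many genes beside the histones moved. The median difference of the histone genes was 0.17, with 19 of 26 above 0, against -0.0014 over all genes.

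The smallest p belonged to Hist3h2a, followed by Hist2h3c2 and Hist3h2ba. Hist3h2a (chr11:58954685-58956830, plus strand), which encodes an H2A, ranged from 8.44 over a median of 8.74 to 9.31 in the 21 STD mice and from 8.80 over 9.05 to 9.36 in the 24 TWD mice. All 24 TWD mice were above the STD median and 11 STD mice lay below every TWD mouse, although the ranges overlap. The difference was 0.29 ± 0.058 (SE, adjusted p = 0.0157). Its neighbour Hist3h2ba (chr11:58948920-58949533, plus strand), an H2B gene, ranged from 7.17 over 7.35 to 8.27 on STD and from 7.38 over 7.76 to 8.26 on TWD. The difference was 0.36 ± 0.082, and 24 of 24 TWD mice were again above the STD median. The third gene of the cluster, the pseudogene Hist3h2bb-ps, differed by -0.11 ± 0.067 (adjusted p = 0.203).

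The promoters of Hist3h2a and Hist3h2ba are shown from 250 bases before to 50 bases after the start (RefSeq, GRCm38.p6, chr11:58954435-58954734 and chr11:58948661-58948960, both plus strand). Matches to 3 motifs on either strand are in capitals, and a link between the motifs and the diet difference was not tested.
Hist3h2a promoter: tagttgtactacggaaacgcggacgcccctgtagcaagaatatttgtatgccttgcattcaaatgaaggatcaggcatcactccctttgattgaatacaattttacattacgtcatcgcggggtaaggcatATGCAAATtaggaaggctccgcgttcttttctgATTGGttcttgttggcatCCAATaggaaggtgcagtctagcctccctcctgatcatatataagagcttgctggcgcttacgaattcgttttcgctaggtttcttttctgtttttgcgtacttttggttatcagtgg
Hist3h2ba promoter: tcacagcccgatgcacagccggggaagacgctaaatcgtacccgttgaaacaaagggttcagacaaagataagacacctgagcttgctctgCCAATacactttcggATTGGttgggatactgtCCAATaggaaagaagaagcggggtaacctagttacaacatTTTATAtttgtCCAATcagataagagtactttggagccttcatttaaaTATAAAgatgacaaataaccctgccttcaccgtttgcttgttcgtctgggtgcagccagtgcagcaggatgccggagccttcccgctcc

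The first motif was CCAAT, the box bound by nuclear factor Y. The second was TATAAA, the classical TATA box, and the third the octamer ATTTGCAT, known from H2B promoters. In the windows shown no match of one motif overlapped that of another. RefSeq promoters were matched for 20 of the 26 histone genes, and the first motif stood in 11 of 13 clustered windows (84.6%) and 6 of 8 variant windows, against 37.4% of all 32851 promoter windows. Windows are not genes here, since Hist1h2be entered with windows at separate starts. The pseudogene H3f3c is among the variant windows. TATAAA was in 5 of 13 clustered windows, 1 of 8 variant ones and 13.6% of all, and the octamer in 3 of 13, 1 of 8 and 1.74%. Hist3h2a held the octamer and Hist3h2ba the exact letters TATAAA. Other forms of a TATA box were not searched, so that letters such as tatataag in the Hist3h2a window did not count. The matches describe letters and not binding, and the Hist3h2a window runs into the annotated Hist3h2bb-ps on the opposite strand.

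Hist2h3c2, an H3 gene of the Hist2 cluster, ranged from 5.46 over 6.16 to 6.90 on STD and from 6.10 over 6.55 to 7.04 on TWD. The difference was 0.43 ± 0.092 (adjusted p = 0.0157), with 22 of 24 TWD mice above the STD median. Hist2h3c1 of the same cluster, absent from the table, has the same stem-loop and flanking bases as Hist2h3c2. Reads that fit both were not examined. Hist2h2aa2, which encodes an H2A, was higher by 0.45 ± 0.15 (adjusted p = 0.0280), with values from 6.83 to 8.53 on STD and from 6.68 to 9.42 on TWD. Its neighbour Hist2h2aa1 is a near-identical copy, and reads that fit both could be divided between them in the authors' counting. For Hist2h2aa1 the difference was 0.47 ± 0.19 (adjusted p = 0.0508), just outside the threshold. In the Hist1 cluster the H2B gene Hist1h2bc was higher by 0.29 ± 0.079 and the H4 gene Hist1h4h by 0.28 ± 0.092. Among the other clustered genes, Hist1h1e (linker histone H1.4), Hist2h2be, Hist2h4, Hist1h2ac and Hist3h2bb-ps had differences from -0.15 to -0.060 that did not pass the test.

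Among the variants the calls covered most of the H2A replacement histones and both H3.3 genes. H2afj, which encodes H2A.J, had the largest difference of the called variants at 0.43 ± 0.13, from a median of 9.02 on STD to 9.38 on TWD. H2afv was higher by 0.30 ± 0.083 and H2afz by 0.20 ± 0.064, and these 2 genes encode the H2A.Z isoforms. H2afx was higher by 0.27 ± 0.087 and H2afy by 0.16 ± 0.052. The second macroH2A gene, H2afy2, had a difference of 0.14 ± 0.056 (adjusted p = 0.0601). H3f3b was higher by 0.22 ± 0.061, with medians of 10.93 and 11.16, and H3f3a by 0.18 ± 0.065 (adjusted p = 0.0341), with medians of 10.65 and 10.76. In each of these genes the STD and TWD ranges overlapped.

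The antisense gene H3f3aos differed by -0.075 ± 0.089 between the diets and the pseudogene H3f3c by -0.28 ± 0.34, neither past the test. H3f3aos overlaps the start of H3f3a on the other strand, and the strand setting of the authors' counting is not given in the sources used here. H3f3c, a processed copy of the H3f3a messenger, had the widest spread, with an SD of 1.13 over the 45 mice that exceeded the SD of 99.5% of genes. It shared one lowest value, 4.22, in 4 mice and another, 4.46, in 3 mice, the first all in batch 1 and the second all in batch 0. Likewise 4 TWD mice of batch 1 shared a Hist1h2bq value of 5.04, the lowest of that batch. Mice with no read of a gene would share a value in this way. Whether these are 0 counts cannot be read from the deposited values, so the low H3f3c values, and the SD that rests on them, may mark absent reads rather than a measured level. How reads that fit both H3f3c and H3f3a were divided cannot be read from these values either. The 4 batch 1 mice were those with the highest H3f3a values of all 45 mice, while the 3 batch 0 mice had H3f3a values of 10.67, 10.71 and 10.85, within the range of the other mice.

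**Figure D2:**
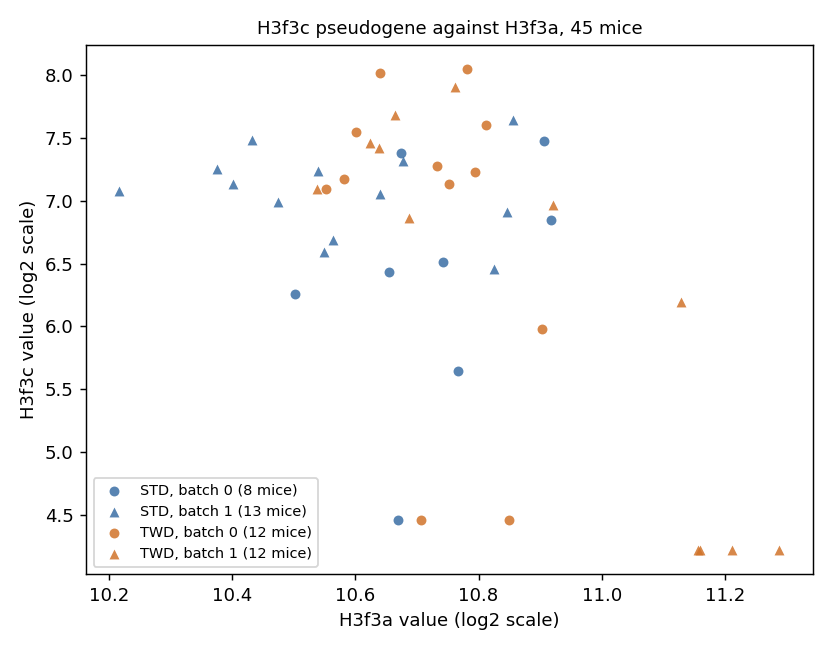
Value of the pseudogene H3f3c against that of H3f3a in each of the 45 mice, both on the log2 scale, with colour for diet and symbol for batch. The 4 mice of batch 1 at the lowest H3f3c value of 4.22 are on TWD and lie at the right end of the H3f3a axis.

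These 4 mice, A+T+/TWD mouse 1, AwTw/TWD mouse 3, AwT+/TWD mouse 3 and A+Tw/TWD mouse 2, stood apart over the whole table. They had the lowest values of a score of the main axis of variation that remains after group and batch, between -2.42 and -1.63 in units of its SD. Each mouse was scored on its full values, with group differences left in, so that the score itself differs between the diets. Its mean was lower on TWD in each genotype, with 0.91 in AwTw/STD and -0.63 in AwTw/TWD mice. All 4 were among the 4 highest mice of H3f3a, Hist1h4h and Hist2h2aa1. Without them 0 of the 26 histone genes and 0 of all 15897 genes were called for diet by limma. The median difference of the histone genes was then 0.13. Hist3h2a then differed by 0.25 ± 0.059, Hist3h2ba by 0.28 ± 0.080 and Hist2h3c2 by 0.35 ± 0.095 (each adjusted p = 0.180), and H3f3a by 0.087 ± 0.057. Removal of the 4 mice also takes away 4 of the 24 TWD mice, picked by a score that itself differs between the diets.

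The 2 batches gave different counts. In the 20 mice of batch 0 (8 STD and 12 TWD), 22 of 26 histone genes were above 0 with a median difference of 0.068. There 0 histone genes and 0 of all genes were called. In the 25 mice of batch 1 (13 STD and 12 TWD), the median difference was 0.29 and 16 histone genes were called, beside 40.9% of all genes. Hist3h2a differed by 0.20 ± 0.083 in batch 0 and 0.38 ± 0.085 in batch 1, Hist3h2ba by 0.28 ± 0.11 and 0.46 ± 0.12, and H2afz by 0.19 ± 0.070 and 0.25 ± 0.10. H3f3a differed by 0.0061 ± 0.064 in batch 0 and 0.35 ± 0.097 in batch 1. A difference between the batches was not itself tested.

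**Figure D3:**
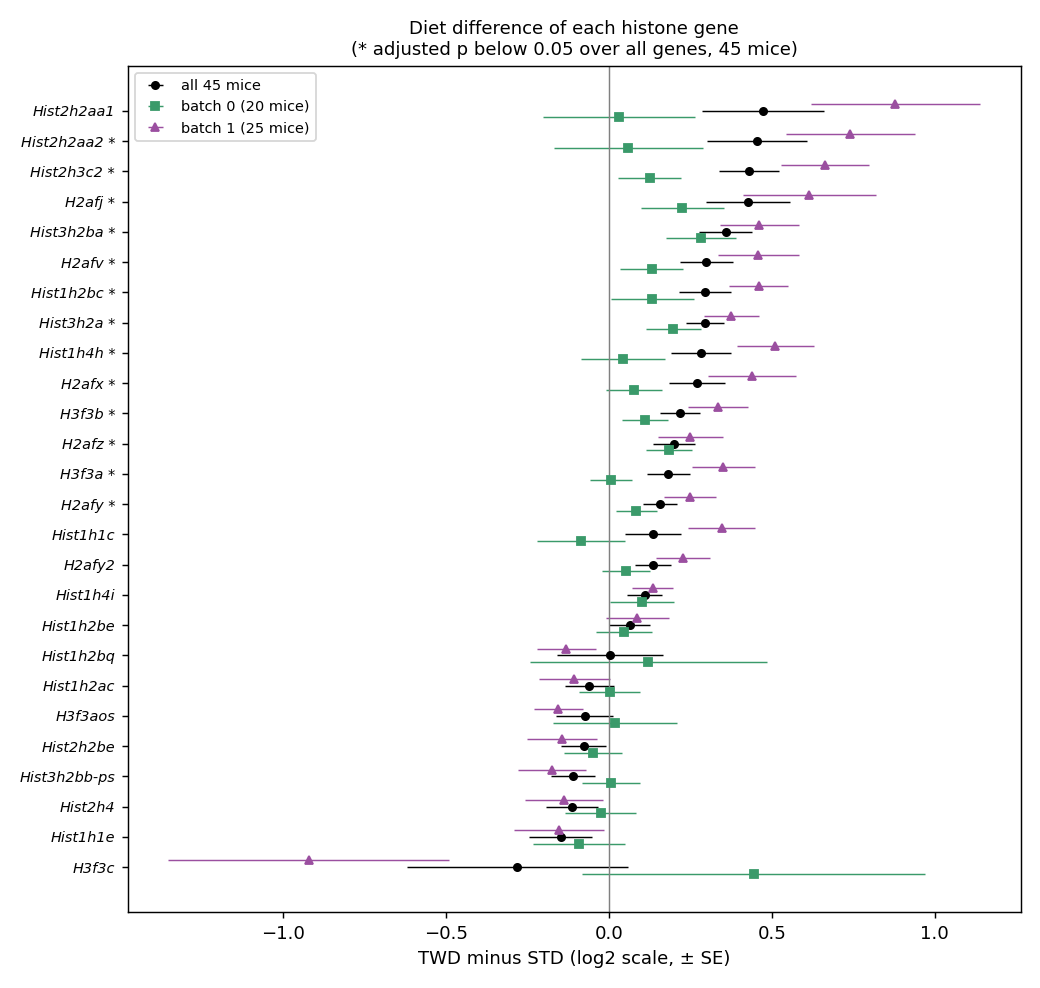
Difference of each histone gene between TWD and STD mice on the log2 scale with its SE, over all 45 mice (black), in batch 0 (green) and in batch 1 (purple). The 13 genes with an asterisk passed the test over all mice, and their batch 1 points lie to the right of their batch 0 points.

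The diet difference also moved with the length of the transcript across the whole table. The median difference was 0.14 in the 1617 genes of up to 1000 bases, of which 37.0% were called higher, and -0.16 in the 2160 genes of over 5000 bases, of which 2.69% were. The histone genes are short, with 10 of up to 1000 bases, 10 of over 1000 to 2000, 6 of over 2000 to 3000 and 0 above. A tilt per mouse, the mean deviation of genes of up to 1000 bases less that of genes over 5000 bases, was -0.16 ± 0.27 in STD and 0.14 ± 0.29 in TWD mice (SD, n = 21 and 24). Across the 45 mice the tilt had a correlation of 0.94 with H2afj, 0.90 with Hist3h2ba, 0.88 with Hist1h2bc, 0.81 with H3f3a, 0.70 with Hist3h2a and -0.61 with Hist2h4. The tilt and the gene values of a mouse come from the same library.

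After a smooth trend over length and GC content was taken out of each mouse, 6 histone genes were called for diet beside 11.9% of all genes. Of these, 5 were higher on TWD, among them Hist3h2a by 0.40 ± 0.080 (adjusted p = 0.0203), Hist1h2bc by 0.33 ± 0.086, H2afv by 0.23 ± 0.069 and H3f3b by 0.41 ± 0.13, and Hist3h2bb-ps was lower. Of the 13 genes called before this removal, only Hist3h2a, Hist1h2bc, H2afv and H3f3b stayed called. H2afj then differed by 0.21 ± 0.072 (adjusted p = 0.0507), Hist2h3c2 by 0.19 ± 0.076 and Hist3h2ba by 0.12 ± 0.045, none of which passed. With the score of the main residual axis as a covariate, 0 histone genes and 0 of all genes were called. Since that score itself differs between the diets, this setting can take out part of the diet difference. The part of length, batch and this axis in the diet result was not tested.

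**Figure D4:**
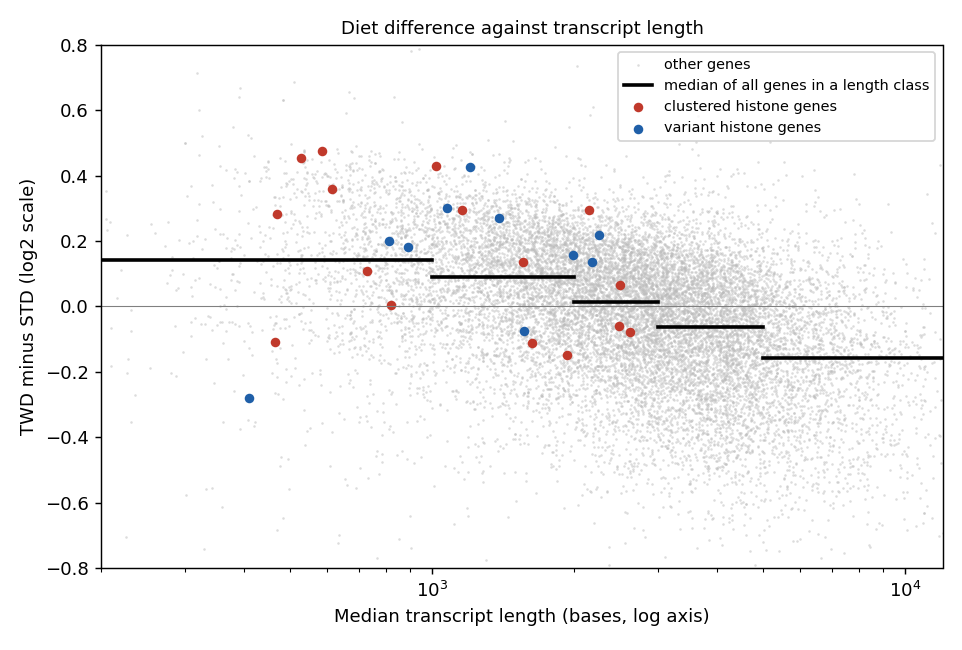
Difference between TWD and STD mice on the log2 scale against the median transcript length in bases (log axis), for clustered histone genes (red), variant histone genes (blue) and the other genes (grey), with bars at the median of all genes in each length class. The bar is at 0.14 for the shortest class and at -0.16 for the longest, and no histone gene is longer than 3000 bases. Some genes lie beyond the axes.

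The counts in other lists of the pathway stand beside the 16.0% of all genes called higher and the 13.4% called lower, and nothing is read from them. Of 18 measured genes of DNA replication and the cell cycle, 1 was called higher on TWD, the thymidylate synthase Tyms by 0.24 ± 0.075, and 0 lower. Of 17 genes that transcribe or process histone messengers, 2 were higher, the scaffold Sympk by 0.30 ± 0.094 and the U7 snRNP protein Lsm10 by 0.18 ± 0.066. In the same list 4 were lower, Npat, the coactivator of histone gene transcription, by -0.50 ± 0.17, the octamer-binding Pou2f1 by -0.40 ± 0.14, Cstf2 by -0.37 ± 0.11 and Cpsf2 by -0.24 ± 0.071. Of 34 histone chaperones and deposition factors 6 were higher, including the H3.3 chaperone Daxx by 0.33 ± 0.090 and Vps72, which serves H2A.Z exchange, by 0.28 ± 0.074, and 7 were lower, including Atrx, the partner of Daxx, by -0.81 ± 0.31. Of 3 measured histone genes named outside the rule, H1fx was higher by 0.47 ± 0.13, and H1f0 and Cenpa did not pass. Among cell type markers 3 of 5 oligodendrocyte and 3 of 7 microglial genes were higher on TWD and 1 microglial gene was lower. Of 5 markers of neural progenitors and immature neurons 0 were above 0, with a median difference of -0.14, and Dcx, a marker of immature neurons, was called lower by -0.53 ± 0.18. The 7 choroid plexus markers had a median of -0.54 with 0 above 0 and 0 called, neurons and astrocytes each had 1 of 5 called higher and 1 lower, and endothelium (5) and blood (4) had 0 called. The mean level of each marker list ranged from 12.18 to 12.81 on STD and from 12.12 to 12.82 on TWD for oligodendrocytes, and from 8.89 to 10.02 and 9.09 to 10.00 for microglia. For neural progenitors and immature neurons it ranged from 6.15 to 7.15 and from 5.89 to 6.99. The part of these cells in the histone result was not tested.

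Within single genotypes, the diet passed the test for histone genes in AwTw mice, the wild type. There 5 histone genes were higher on TWD, H2afj by 0.77 ± 0.25, Hist2h3c2 by 0.59 ± 0.18, H2afv by 0.47 ± 0.14, H3f3b by 0.36 ± 0.12 and H2afy by 0.33 ± 0.099, all at the same adjusted p of 0.0498. Over all genes 6.01% were called higher and 3.34% lower. H2afj ranged from 8.48 over a median of 8.62 to 9.35 in the 6 AwTw/STD mice and from 8.93 over 9.54 to 10.27 in the 6 AwTw/TWD mice. H2afy ranged from 9.98 over 10.08 to 10.38 and from 10.18 over 10.48 to 10.65. In each of the 5 genes the groups overlapped. The calls lie at the edge of the threshold, and leaving out any of 32 of the 45 mice in turn brought the count to 0, AwTw/TWD mouse 3 among them.

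Among the transgenic genotypes 0 histone genes were called for diet, beside 0% of all genes in each. At an unadjusted p below 0.05 stood 5 histone genes in AwT+, where 7.44% of all genes did, 3 in A+Tw (4.43%) and 3 in A+T+ (2.57%). Hist3h2a did not overlap between the diets in AwT+, where the STD mice ranged from 8.44 to 8.93 and the TWD mice from 8.96 to 9.29. In A+T+ the 4 STD values of 8.55, 8.65, 8.71 and 8.71 likewise lay below the 6 TWD values, from 8.80 to 9.36. The differences of 0.35 ± 0.11 and 0.38 ± 0.13 had adjusted p of 0.646 and 0.998. Hist3h2ba did not overlap in these same genotypes, and neither did H3f3b in AwT+. Values of all genes that did not overlap between the diets came to 0.937% in AwT+, where 3 of 26 histone genes did not, 0.528% in A+T+ (2 histone genes), 0.164% in A+Tw (1) and 0.352% in AwTw (0). In A+Tw mice the H2A gene Hist1h2ac was separated in the other direction, with 5.48, 5.50, 5.56, 5.68 and 5.86 in the 5 STD mice and 5.06 to 5.46 in the 6 TWD mice (difference -0.45 ± 0.13, adjusted p = 0.706). These separated genes were picked after their values were seen.

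**Figure D5:**
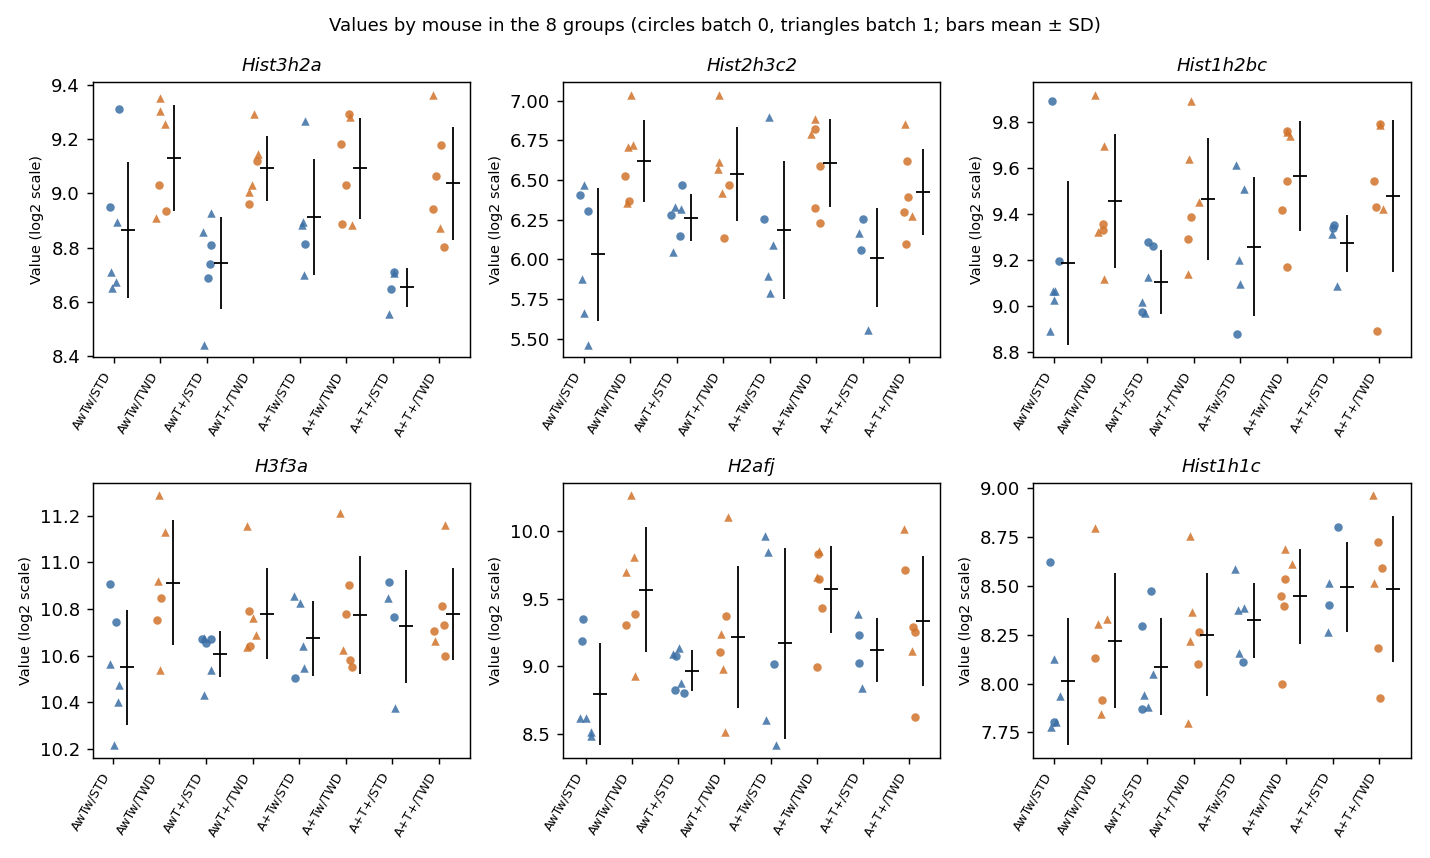
Values of 6 histone genes by mouse in the 8 groups, on the log2 scale, with circles for batch 0, triangles for batch 1, blue for STD, orange for TWD and bars at the mean ± SD. Hist3h2a does not overlap between diets in AwT+ and A+T+ mice, and Hist1h1c shows its highest group means in APP/PS1 carriers.

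Whether the diet difference itself varied with genotype was tested as an interaction against AwTw. By limma 0 histone genes and 0% of all genes passed for AwT+, A+Tw or A+T+. At an unadjusted p below 0.05 stood 0, 1 and 3 histone genes, beside 4.02%, 2.21% and 6.30% of all genes. The smallest p belonged to the H4 gene Hist2h4 in A+T+ (interaction 0.62 ± 0.21, adjusted p = 0.560). Its median was 5.71 in AwTw/STD and 5.32 in AwTw/TWD mice, and the 4 A+T+/STD mice had 5.05, 5.24, 5.36 and 5.37 against a median of 5.56 in A+T+/TWD mice. The test of any difference among the 8 groups called 0 histone genes and 1.84% of all genes, and Hist3h2a came closest (F = 4.26, adjusted p = 0.0631).

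Of the 26 histone genes 1 was called between APP/PS1 carriers and non-carriers, a count near the share of all genes called. Hist1h1c (chr13:23738808-23740367, plus strand), which encodes the linker histone H1.2, was higher by 0.30 ± 0.085 (adjusted p = 0.0332), where 3.10% of all genes were called higher and 0.679% lower. It ranged from 7.78 over a median of 8.11 to 8.80 in the 24 Aw mice and from 7.93 over 8.45 to 8.96 in the 21 A+ mice, so that the ranges overlap. The means of the STD groups without APP/PS1 were 8.01 ± 0.33 (AwTw) and 8.09 ± 0.25 (AwT+), and those with it 8.32 ± 0.19 (A+Tw) and 8.50 ± 0.23 (A+T+), each ± SD. On TWD they were 8.22 ± 0.35, 8.25 ± 0.32, 8.45 ± 0.24 and 8.48 ± 0.37 in the same order.

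The Hist1h1c difference was 0.24 ± 0.13 in batch 0 (adjusted p = 0.495) and 0.42 ± 0.10 in batch 1. It was 0.31 ± 0.079 without the 4 mice named above, and 0.22 ± 0.063 with the length and GC trend removed, each past the threshold. The adjusted p over the settings tried on all 45 mice lay between 0.0206 and 0.0436, and leaving out any of 12 mice in turn ended the call (highest adjusted p = 0.0664). Among markers of other cells, 5 of 7 microglial genes were higher in carriers, with a mean level of 9.44 to 10.02 in A+Tw/STD and 8.96 to 9.25 in AwTw/STD mice, and choroid plexus genes had a median difference of 0.96 with 0 of 7 called. Their part in the Hist1h1c result was not tested.

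In the comparisons of single genotypes with AwTw on the same diet 0 histone genes were called. Over all genes the test called 0.925% in A+Tw/STD, 1.32% in A+T+/STD, 0.824% in A+Tw/TWD and 0.730% in A+T+/TWD, and 0% in both AwT+ comparisons. In the latter 0 histone genes reached an unadjusted p below 0.05, beside 2.39% of all genes on STD and 3.04% on TWD. Comparisons within a diet share their AwTw mice. The closest gene was Hist2h4 in A+T+/STD mice (-0.45 ± 0.16, adjusted p = 0.193). In the same comparison Hist1h1c differed by 0.49 ± 0.19 (adjusted p = 0.230) and Hist1h2ac by -0.32 ± 0.14. Tau P301L carriers against non-carriers gave 0 histone genes and 0.0126% of all genes, and the closest histone gene was Hist3h2a (-0.11 ± 0.057, adjusted p = 0.999).

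Pairs of variant genes that encode related histones varied together from mouse to mouse. Over the residuals of the 45 mice after group and batch, H3f3a and H3f3b had Pearson's r = 0.80 and Spearman's rho = 0.78, H2afz and H2afv r = 0.81 and rho = 0.72, and H2afy and H2afy2 r = 0.73 and rho = 0.68. Every permutation p, raw and adjusted over the 3 pairs, was 1e-05 (two-sided), the smallest that 100000 permutations can give. Without the 2 mice farthest from the median of the first gene, r was 0.79, 0.77 and 0.72. Within batch 0 r was 0.50, 0.46 and 0.72, and within batch 1 0.81, 0.91 and 0.75. With the main residual axis taken out too, r fell to 0.33, 0.31 and 0.26 (permutation p adjusted over the 3 pairs 0.0633, 0.0633 and 0.0899).

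Genes of both classes followed that axis. Across the 45 mice its score had a correlation of -0.94 with H2afj, -0.90 with H2afv and -0.85 with H3f3a, and of -0.84 with Hist2h2aa2, -0.82 with Hist3h2ba, -0.76 with Hist1h2bc and 0.71 with Hist2h2be, but of 0.068 with H3f3aos and 0.35 with H3f3c. Over the 45 pairs of variant genes the median residual r was 0.65 and it was 0.075 once the axis was taken out. Over the 120 pairs of clustered genes the medians were 0.10 and 0.14, with members that follow the axis in opposite directions among them. H2afj and the clustered Hist3h2ba had a residual r of 0.90, above each of the 3 pairs, and 0.66 once the axis was taken out. These values describe the same 45 libraries.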

How the data were processed

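Hippocampal RNA of 45 female mice was sequenced by the submitters as stranded mRNA libraries with single reads. The authors trimmed reads with Trimmomatic 0.38, removed unwanted reads with Bowtie2 2.2.3, quantified transcripts with kallisto 0.44.0, removed genes with a mean count under 10, applied the variance-stabilizing transformation of DESeq2 1.22.2 and removed batch with limma 3.38.3 (versions from the submitters' processing notes, build mm10). The deposited values are thus on a log2 scale, and depth per mouse is not known from them.

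Genotype, diet and batch came from the sample labels. The tests used limma 3.58.1 under R 4.3.3 (mean trend, batch as covariate, two-sided, Benjamini-Hochberg over 15897 genes, threshold 0.05). One fit of the 8 groups gave contrasts within genotype or diet, interactions and the F test, and additive fits gave diet, APP/PS1 and tau. The code was tested on simulated data. Since the deposited batch means are equal for every gene (0 exceptions), batch was kept in the fits. Symbols, lengths and GC content are from GENCODE M21 (GRCm38.p6) and were found for 98.7% of genes. Correlations used 100000 permutations in Python 3.11.15 with numpy 2.4.6.

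The members and lists were chosen with earlier results of these data known. Named are all variant genes, each clustered gene past the threshold, the 5 clustered genes with the highest mean, the clustered gene with the smallest p of each family of tests, and at most 5 pathway genes per list past the threshold. The settings varied were the batch covariate (dropped), the batches (one at a time), the label prefix or a score of the first residual component as covariate, quantile normalization, a filter at the 25th percentile, no mean trend, the compared groups alone, a threshold of 0.1, the 157 copied genes counted once and each mouse left out. The removal of a length and GC trend (spline, 5 degrees of freedom) and of 4 mice with the lowest score was chosen after seeing the data.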

Additional observations from a re-analysis of the deposited data

Results flagged for a closer look

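Mice were looked for whose value lay far from the rest of their group. Of 152 sets (19 named histone genes in 8 groups) 13 held such a mouse, where chance gives about 1 in 20 sets, or 7.6. The lone value was high for H2afx in A+T+/TWD mouse 1 (9.61, others 8.77 to 9.05), H2afy2 in A+Tw/TWD mouse 2 (8.51, others 7.99 to 8.14), H3f3a in AwT+/TWD mouse 3 (11.16, others 10.64 to 10.79) and Hist3h2ba in the same mouse (8.26, others 7.48 to 7.77). These 3 mice are among the 4 with the lowest score of the residual axis, and H3f3c of AwT+/TWD mouse 3 was low (4.22, others 6.86 to 8.01).

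AwTw/STD mouse 2 was high for Hist1h2bc (9.89, others 8.89 to 9.20) and Hist3h2ba (7.91, others 7.17 to 7.42). The antisense gene H3f3aos was high in A+Tw/TWD mouse 6 (6.74, others 5.19 to 5.38). Low values were those of H2afz in A+T+/STD mouse 3 (9.78, others 9.91 to 9.93), H3f3b in AwT+/STD mouse 5 (10.79, others 10.89 to 10.93), H3f3c in AwT+/STD mouse 3 (4.46, others 6.44 to 7.48), Hist1h2bc in A+T+/STD mouse 4 (9.09, others 9.31 to 9.35) and Hist2h4 in A+T+/TWD mouse 2 (4.86, others 5.41 to 5.70). The H3f3c values of 4.22 and 4.46 are each shared exactly by several mice of a batch, and the deposited values do not show whether these mice had any read of the gene.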

How the results depend on the processing

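The count of 13 histone genes called for diet over all genotypes was 0 in batch 0 alone and 6 with the length and GC trend removed. Of the 13, only Hist3h2a, Hist1h2bc, H2afv and H3f3b were among these 6. It was 0 with the residual score, which itself differs between the diets, as covariate, and 0 without the 4 mice with the lowest score. Leaving out each mouse in turn gave 10 to 15, the lowest without AwTw/TWD mouse 3, where 2768 of all genes were called. Without A+Tw/STD mouse 2 the count was 15, beside 5917 of all genes. The count of 5 in AwTw mice was 8 without the batch covariate, 13 in batch 1 alone and 14 at a threshold of 0.1. The counts over all genes in these settings are not given here, so nothing particular to histones is read from them. It was 0 in batch 0 alone, with the label prefix, with the residual score, with quantile normalization, without the mean trend, with the compared groups alone, with the length and GC trend removed and without the 4 mice. Batch 0 alone holds 2 AwTw mice on each diet, and there the AwTw differences of H3f3b (-0.039) and H2afv (-0.016) were small and of the other sign. Single mice left out gave 0 to 15 in AwTw. The highest counts were those without AwTw/STD mouse 2 (15, beside 4590 of all genes) and AwTw/TWD mouse 5 (14, beside 6072). The histone counts thus moved with those of the whole table. The test over the 8 groups gave 1 gene in place of 0 at a threshold of 0.1, and 0 to 1 with single mice left out (1 without A+Tw/STD mouse 2 or 5, AwTw/STD mouse 2 or AwTw/TWD mouse 5). The APP/PS1 count of 1 was 0 in batch 0 alone and 0 to 1 with single mice left out. The mice whose loss ended it were A+T+/STD mice 1 and 2, A+T+/TWD mice 1 and 2, A+Tw/STD mouse 5, A+Tw/TWD mouse 2, AwT+/STD mouse 1, AwT+/TWD mice 1 and 5, AwTw/STD mouse 6 and AwTw/TWD mice 4 and 5. All other comparisons gave 0 histone genes under every alternative run, also with each mouse left out (0 to 0). The pair correlations within batch 0 were 0.50 for H3f3a and H3f3b and 0.46 for H2afz and H2afv, and r of H2afy and H2afy2 with the residual axis taken out was 0.26 (permutation p = 0.0899). The cause was not tested. No paired analysis was possible because the replicate numbers follow accession order and tie no mice together. The deposited values carry no depth, so counting error cannot be given for the low genes.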
